A study of Sus scrofa with 31 samples.

Results

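Whole blood of 30-week-old Clawn miniature pigs was compared with whole blood of fetuses of the same strain. The comparison used every array titled with either stage, which gave 15 of the 31 arrays of the series, and all 43603 gene probes of the porcine array. The fetal group held 4 males and 4 females taken by Caesarean section before term. The 30-week group held 3 males and 4 females kept from 12 weeks of age in a specific pathogen-free facility, and no animal of either group was treated. Blood of the older animals was drawn from the superior vena cava. Each of these pigs had its own cage and was bled repeatedly between 12 and 30 weeks. Arrays of different ages could not be matched to the same pig from the information available. The site of fetal sampling and the number of litters were also unknown. RNA was stabilised in PAXgene tubes, labelled with Cyanine 3 and hybridized to 1 array for each blood sample. Nothing says that fetuses came from separate litters, so the p-values measure the spread between these blood samples.

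Fetal blood carries young red cells that still hold nuclei or ribosomes, because red cells are formed in the liver before the bone marrow takes over. The fetus is shielded from microbes by the uterus, and its placenta passes almost no maternal antibody in pigs. Adult-type blood is filled with neutrophils, monocytes and lymphocytes, which carry MHC molecules (SLA in the pig) that present peptides to T cells, Toll-like receptors that sense microbial products, and interferon receptors that switch on antiviral genes. Whole blood mixes all of these cells, so fewer cells of a type and less RNA per cell cannot be told apart.

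The 60-base probes that follow are printed for the genes on which the results turn, as the array files give them. The first group is higher in the fetus. HBE1 is embryonic globin, EPOR the erythropoietin receptor that keeps red cell precursors alive, and TNNI1 a troponin of slow muscle fibres.
HBE1: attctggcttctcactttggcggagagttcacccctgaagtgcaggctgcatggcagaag
EPOR: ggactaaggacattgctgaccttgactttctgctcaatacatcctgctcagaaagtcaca
TNNI1: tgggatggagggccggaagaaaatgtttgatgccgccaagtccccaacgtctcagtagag

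The second group was seen on every 30-week array and on no fetal array. NCF1 is a subunit of the neutrophil oxidase, TLR2 senses bacterial lipoproteins and TLR4 senses bacterial lipopolysaccharide.
NCF1: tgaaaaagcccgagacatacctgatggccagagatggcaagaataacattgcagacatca
TLR2: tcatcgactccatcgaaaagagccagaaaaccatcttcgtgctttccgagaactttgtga
TLR4: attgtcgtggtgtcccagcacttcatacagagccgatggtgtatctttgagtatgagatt

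The third group holds genes for which the choice or the assignment of a probe limits a result. One of the 10 probes of SLA-1 is given, and then the 2 probes of CD74, the invariant chain of MHC class II, which gave unlike results although both are assigned to that gene.
SLA-1: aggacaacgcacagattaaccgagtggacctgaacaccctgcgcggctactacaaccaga
CD74 probe a: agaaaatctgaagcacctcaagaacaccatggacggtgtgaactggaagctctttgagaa
CD74 probe b: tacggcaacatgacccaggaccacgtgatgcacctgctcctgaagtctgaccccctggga

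The class I genes are nearly identical copies of each other. A run of 17 bases, shown in capitals because it is the shared part, stood in 1 of 10 probes of SLA-1, 2 of 2 of SLA-2 and 2 of 4 of SLA-3, and in 8 probes of the whole array. The SLA-1 probe printed above does not hold this run.
Shared class I run: GTTTGAAAGAGGAAATA
Signal of SLA-1, SLA-2 and SLA-3 is therefore given for each probe as labelled, and its assignment to a single gene is uncertain.

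The stages differed in how much of the array lit up. A probe is called present here when the scanner software marked its signal as significant and as well above the background. Between 5678 and 12776 probes were present on a fetal array, with a median of 9915.5. Between 17361 and 21892 were present on a 30-week array, with a median of 20624. The mean rose from 9443 ± 2669 (SD, n = 8) to 19970 ± 1678 (SD, n = 7), a difference of 10527 probes, and the stages did not overlap (two-sided exact permutation test over 6435 splits, p = 0.000155, the smallest this design allows, adjusted p = 0.000233 over 3 values). Summed processed signal (intensity units divided by 1000000) ran from 3.42 to 16 in the fetus and from 17.0 to 42.7 at 30 weeks. No spot was saturated. The fetal arrays lay on 4 slides scanned on 2 days and the 30-week arrays on 2 other slides scanned on 2 other days, so that stage, slide and scan day cannot be told apart. Fetal males and fetal females were also scanned on different days. Within a stage the arrays correlated at 0.784 to 0.942 over 28 fetal pairs and at 0.871 to 0.987 over 21 pairs at 30 weeks. CD3E, a T cell receptor subunit, and PPBP, a platelet chemokine, were present on all 15 arrays. No probe carried the names CD79A, S100A8 or S100A9, so these usual markers of B cells and granulocytes could not be looked at.

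**Figure D1:**
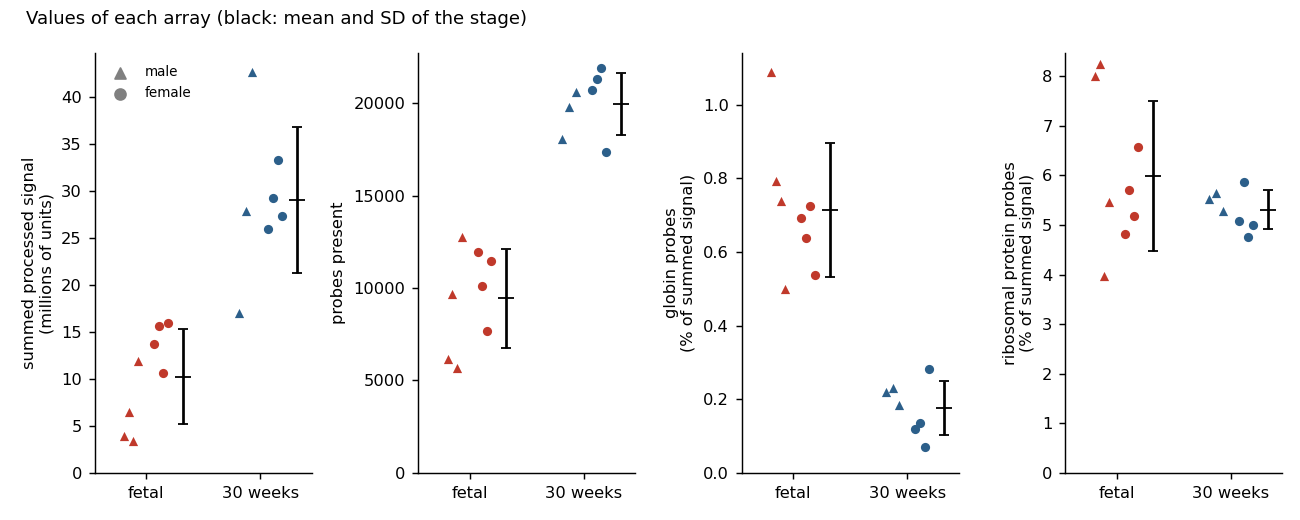
Each point is 1 array (triangles male, circles female; fetal red, 30 weeks blue), with the mean and SD of each stage in black; the panels give summed processed signal (units divided by 1000000), the number of present probes, and the shares of summed signal in percent taken by 4 globin probes and 70 ribosomal protein probes. The stages do not overlap in present probes (12776 at most in the fetus, 17361 at least at 30 weeks) or in globin share (0.499% at least in the fetus, 0.283% at most at 30 weeks), and do overlap in ribosomal protein share. The globin probes are those of HBE1 and HBA alone, so their share is not that of all globin.

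Of the 43603 probes, 17636 passed the filter, being present on over 75% of the arrays at either stage, and were tested with limma on quantile-normalized log2 signal. Differences are given as 30 weeks minus fetal, with called meaning a Benjamini-Hochberg adjusted p under 0.05. By this rule 13072 probes were called (74.1%). Of these, 9148 were higher at 30 weeks (51.9% of tested probes) and 3924 were lower (22.2%). Calls without overlap between the 8 fetal and 7 older arrays made up 39.1% of tested probes, 4623 higher and 2270 lower. With 3 in 4 probes called, a call by itself sets no gene apart, and gene values by array carry more than counts.

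The balance of higher and lower calls depended on scaling and on the probes admitted. The median difference of all tested probes was 1.19 under quantile normalization, 0.43 when each array was scaled by its 75th percentile, 1.30 in the deposited log2 values and 0.38 after normexp background correction. Scaling by the 75th percentile gave 7355 higher (41.7%) and 4749 lower (26.9%), so that the higher share of calls went from 70.0% to 60.8%. Among the 5579 probes admitted at both stages, 1474 were higher and 2744 lower with a median of -0.75. The 11919 admitted through 30 weeks alone held 7674 higher and 1042 lower calls, and the 138 admitted through the fetal stage alone were all lower. Admission through a single stage favours probes that are brighter there, so the last counts are given as a description and support nothing. Both scalings called 10871 probes in the same direction and 24 in opposite directions. Gene symbols could be given to 1706 tested probes of 1114 genes. Of 378 genes with several tested probes, 26 had probes called in opposite directions. In the gene lists that follow, the brightest probe stands for a gene, and the count of a list is to be read against the 51.9% higher and 22.2% lower of all tested probes. A list whose shares lie near these is described without being set apart.

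The genes that fell most were of red cell precursors, muscle, extracellular matrix and fetal growth. The largest fall was that of TNNI1. It lay at 8.86, 9.82 and 10.71 (lowest, median and highest log2 signal of the 8 fetal arrays) and was not well above background on any 30-week array. The signal was at least 127-fold lower at 30 weeks (adjusted p = 2.16e-10). Bounds of this kind set the mean of the bright stage against the lowest signal that counted as well above background on each dim array. This background limit was 4.48 to 7.17 on fetal arrays and 2.46 to 3.44 at 30 weeks. Weak signal could therefore pass at 30 weeks and not in the fetus. Where only some arrays of the dim stage had a probe present, no bound was set. The difference then rests partly on values under the limit, and its size is uncertain. SPARC, a calcium-binding matrix protein, was at 6.75, 8.45 and 10.21 in the fetus on the probe with the larger fall and at least 42.7-fold lower at 30 weeks (adjusted p = 3.04e-09). Decorin (DCN), a collagen-binding proteoglycan, was at 6.36, 8.20 and 9.31 in the fetus on its most changed probe and at least 39.9-fold lower (adjusted p = 2.87e-09). All 3 DCN probes were called lower, and the one present on all 15 arrays fell by 3.20, so the size of its fall depended on the probe. A separate list of striated muscle genes, written after these values had been seen, is described with the closing observations, and its part in the falls was not tested.

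**Figure D2:**
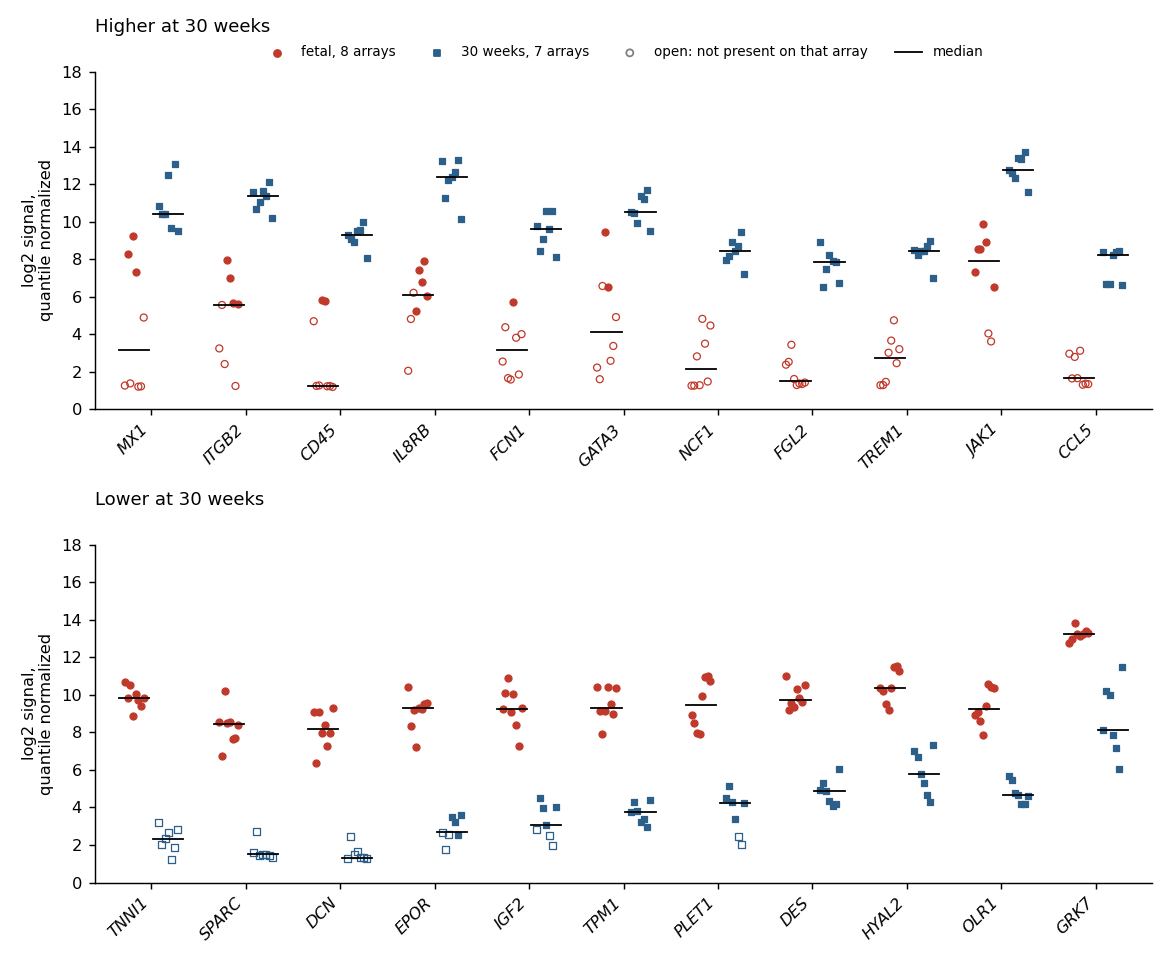
Quantile-normalized log2 signal on each array for 11 genes with the largest rises (top) and 11 with the largest falls (bottom) among named genes whose stages did not overlap; red circles are the 8 fetal arrays, blue squares the 7 arrays at 30 weeks, open symbols mark arrays on which the probe was not present, and black lines are medians. Most fetal symbols of the risen genes are open, as in TREM1 and FGL2 with 0 of 8 present, while all fetal symbols of the fallen genes are filled.

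Other genes among the largest falls were seen on all 8 fetal arrays. EPOR lay between 7.25 and 10.43 with a median of 9.29 in the fetus, and between 1.74 and 3.58 with a median of 2.69 at 30 weeks, where 4 of 7 arrays had it present. The stages were far apart, by -6.28 (SE 0.42, adjusted p = 5.48e-09). Insulin-like growth factor 2 (IGF2), the main fetal growth factor, fell by 6.02 (SE 0.51, adjusted p = 5.38e-08) from a fetal median of 9.27 to 3.09, and by 2.44 on the least changed of its 5 probes. All 5 IGF2 probes were called lower. TPM1, a tropomyosin of muscle and other cells, fell by 5.78 and desmin (DES), the intermediate filament of muscle, by 5.10 on their most changed probes, and by 2.42 and 3.41 on their least changed. PLET1 fell by 5.77, HYAL2, a membrane hyaluronidase, by 4.63, OLR1, a scavenger receptor for oxidised lipoprotein, by 4.63 and the receptor kinase gene GRK7 by 4.55. Each of these 6 genes was separate between the stages, with adjusted p between 5.78e-09 and 8.28e-06.

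Red cell genes were lower at 30 weeks in every member that was called. Of 8 erythroid genes on the array 7 were tested, and 5 fell with 0 higher (list median -3.70, against 1.19 for all tested probes). EPOR, 1 of the 7, was admitted through the fetal stage alone, which favours a fall. Over the 5 genes with a probe present on all 15 arrays, 3 fell and 0 rose (median -2.95). SOX6, a factor of red cell maturation, was at 7.71, 8.51 and 8.82 in the fetus and at 2.59, 4.01 and 5.12 at 30 weeks. The fall was 4.48 (SE 0.38, adjusted p = 6.26e-08) and no array of one stage reached the other. The glucose transporter gene SLC2A1 fell by 3.70 from a median of 7.95. RHCE, a Rhesus blood group protein, fell by 2.95 from a median of 12.62. The ferritin genes FTH1 and FTL, which store iron in many cells, were at medians of 17.32 and 17.42 in the fetus and 17.38 and 17.13 at 30 weeks. Their differences of 0.11 and -0.17 were not called (adjusted p = 0.645 and 0.478) under quantile normalization, while scaling by the 75th percentile made them -2.84 and -3.17, both called lower. A dimmer FTL probe was called lower under quantile normalization (-0.69, adjusted p = 0.0434).

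Embryonic globin HBE1 was at 15.29, 15.71 and 16.19 in the fetus and at 12.19, 13.72 and 14.49 at 30 weeks. Its stages did not overlap, and the difference was -2.09 (SE 0.32, adjusted p = 2.39e-05), or -3.82 when scaled by the 75th percentile. The 3 HBE1 probes gave -2.47 to -2.09, the probe printed above giving -2.47. The probe of HBA, alpha globin, was present on no array of either stage, and no probe was named HBB. The 4 globin probes, those of HBE1 and HBA, were also summed on each array, which needs no normalization between arrays. They held 0.499%, 0.708% and 1.09% of the summed signal in the fetus (lowest, median, highest) and 0.0710%, 0.183% and 0.283% at 30 weeks. With HBA not present and no HBB probe, this share is in effect that of HBE1 and not of all globin. The fetal mean of 0.714% ± 0.182 (SD, n = 8) was 4.03 times the 30-week mean of 0.177% ± 0.0731 (SD, n = 7; two-sided exact permutation test, p = 0.000155, adjusted p = 0.000233).

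Of 5 regulators of embryonic and fetal growth on the array 3 were tested, and 2 fell. PEG10, a retrotransposon-derived placental gene, fell by 3.43 (SE 0.37, adjusted p = 7.35e-07) and was present on 6 of 8 fetal and 6 of 7 older arrays. PLAGL1, a growth regulator, was not called (1.28, adjusted p = 0.051). On the IGF2 probe that was brightest over the arrays, fetal signal lay between 10.40 and 12.13 and 30-week signal between 6.46 and 9.40, a fall of 3.33.

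Transcripts of liver and plasma proteins were lower at 30 weeks. Of 24 such genes on the array 10 were tested, 8 fell and 0 rose, with a median of -3.66. Of the 10, 4 were admitted through 30 weeks alone, which favours a rise, and 2 through the fetal stage alone, which favours a fall. ITIH2, a heavy chain of the hyaluronan-binding inter-alpha-trypsin inhibitor, was at 8.01, 10.32 and 12.77 in the fetus and at 4.47, 5.98 and 6.72 at 30 weeks (-4.43, SE 0.59, adjusted p = 5.18e-06). RBP4, the retinol carrier, fell by 3.96. VTN, vitronectin, fell by 2.39 on its brighter probe and rose by 1.56 on the other, so that 7 of the 10 were lower with the probes of a gene averaged. Apolipoprotein APOC3 was at 8.87, 9.75 and 12.68 against 3.74, 6.43 and 7.59 and fell by 4.25. These genes did not stand at the same level in all fetuses. APOA1, the main protein of high-density lipoprotein, was at 14.67 on fetal male 2 and between 7.73 and 10.30 on the other fetal arrays. SERPINA1, the antitrypsin of plasma, ran from 1.55 to 13.80 in the fetus, around a median of 10.46, and fell by 5.85 with overlap between the stages. The whole list took 0.0272% to 1.43% of fetal signal with a median of 0.0340%, and 0.00332% to 0.0211% at 30 weeks. Without fetal male 2 the list had the same number of calls, 8 lower and 0 higher, with a median of -3.30.

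Genes of endothelium and stroma split. SPARC, DCN, FN1 (fibronectin) and COL6A1 (a collagen VI chain) fell, 4 of 7 tested, and the endothelial marker VWF was not called (1.66, adjusted p = 0.115). PECAM1, another endothelial marker, gave -1.59 to 0.96 on its 4 probes, of which 1 was called, and that lower. COL6A1 was weakly lower (-1.69, adjusted p = 0.0377) and lost its call when any single one of 10 arrays was left out, while FN1 (-2.38, adjusted p = 0.0174) lost it with slide as a random block (adjusted p = 0.0859).

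Cell division genes were lower at 30 weeks in 6 of 7 tested members with 0 higher, and all 7 had been admitted at both stages. BIRC5, which guards chromosome segregation, lay between 11.39 and 13.19 in the fetus and between 9.56 and 11.98 at 30 weeks (-2.0, SE 0.41, adjusted p = 0.000347). Cyclin B1 (CCNB1) fell by 2.20, the replication clamp PCNA by 2.03 and topoisomerase TOP2A by 2.01, each with some overlap. A dimmer TOP2A probe was not called (-0.70, adjusted p = 0.362). PTTG1, securin, had medians of 8.92 and 8.90 and was not called (0.03, adjusted p = 0.943).

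Mitochondrial respiration genes also declined. All 19 oxidative phosphorylation genes of the array were admitted at both stages, and 12 fell and 4 rose (median -1.69). ATP5O, a subunit of ATP synthase, was at 10.56, 11.42 and 11.95 in the fetus and at 7.33, 8.53 and 9.41 at 30 weeks (-2.89, SE 0.36, adjusted p = 3.05e-06). COX7A1, COX7A2 and COX7C, small subunits of cytochrome oxidase, fell by 3.0, 2.85 and 2.80 with no overlap. COX7A1 and COX8H, which fell by 2.59, are the isoforms of heart and skeletal muscle. On the brightest probes SDHA, SDHD, ATP5G1 and ATP5G2 rose, by 1.0 to 1.48, but another SDHA probe fell by 1.59 and another SDHD probe was not called (0.63). With the probes of a gene averaged, 2 genes rose and 12 fell.

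Class I MHC was higher at 30 weeks on every probe that could be tested. SLA-1 was at 11.76, 13.03 and 13.60 in the fetus and at 15.85, 16.83 and 17.57 at 30 weeks. The gap was 4.05 (SE 0.34, adjusted p = 5.92e-08), a 16.5-fold difference, and its 10 probes rose by 3.48 to 4.88. SLA-2 rose by 4.51 on its most changed probe and by 2.45 on the other, and SLA-3 by 3.88 to 4.46 on 4 probes. SLA-7, a non-classical class I gene, rose by 2.05 and had fetal values of 9.75 to 11.43 below 30-week values of 11.88 to 14.27. The SLA-6 probe was present on no array. Scaling by the 75th percentile made the rise of the same SLA-1 probe 2.14.

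The machinery that cuts and loads class I peptides moved in the same direction. Of 11 class I and loading genes on the array 10 were tested and 9 rose with 0 lower (median 2.49), and 9 of the 10 had been admitted at both stages. The immunoproteasome subunits PSMB9 and PSMB10 rose by 2.69 and 2.09 and the proteasome activators PSME1 and PSME2 by 2.18 and 2.29, while PSMB8 was not called (0.89, adjusted p = 0.097). TAP1, the peptide transporter, was present on 1 fetal array and rose by 4.19 on its brighter probe, and the other, present on 0 fetal arrays, was also called higher (adjusted p = 0.0421).

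Class II MHC rose too, with 4 of 5 tested genes higher and 0 lower (6 on the array, median 3.37). SLA-DRA, the shared alpha chain, was at 8.37, 9.35 and 9.98 in the fetus and at 11.92, 12.61 and 13.37 at 30 weeks (3.37, SE 0.31, adjusted p = 1.46e-07), without overlap. SLA-DRB1 rose by 2.86, with 5 of 5 tested probes higher. SLA-DMA, which helps to load class II peptides, rose by 3.67 with fetal values of 7.98 to 9.19 and 30-week values of 11.28 to 13.01. SLA-DQB1 rose by 4.27 and ranged from 11.03 to 14.63 at 30 weeks. One further SLA-DRA probe was present on no array, and the SLA-DQA1 probe on 1 array of each stage.

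CD74 gave opposite impressions from its 2 probes. Probe a was present on 2 fetal arrays and rose by 5.51 (SE 0.70), from a median of 2.16, under the background limit, to 9.02. Probe b was present on 7 fetal arrays and was not called (0.76, adjusted p = 0.146), with medians of 8.28 and 8.75.

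**Figure D3:**
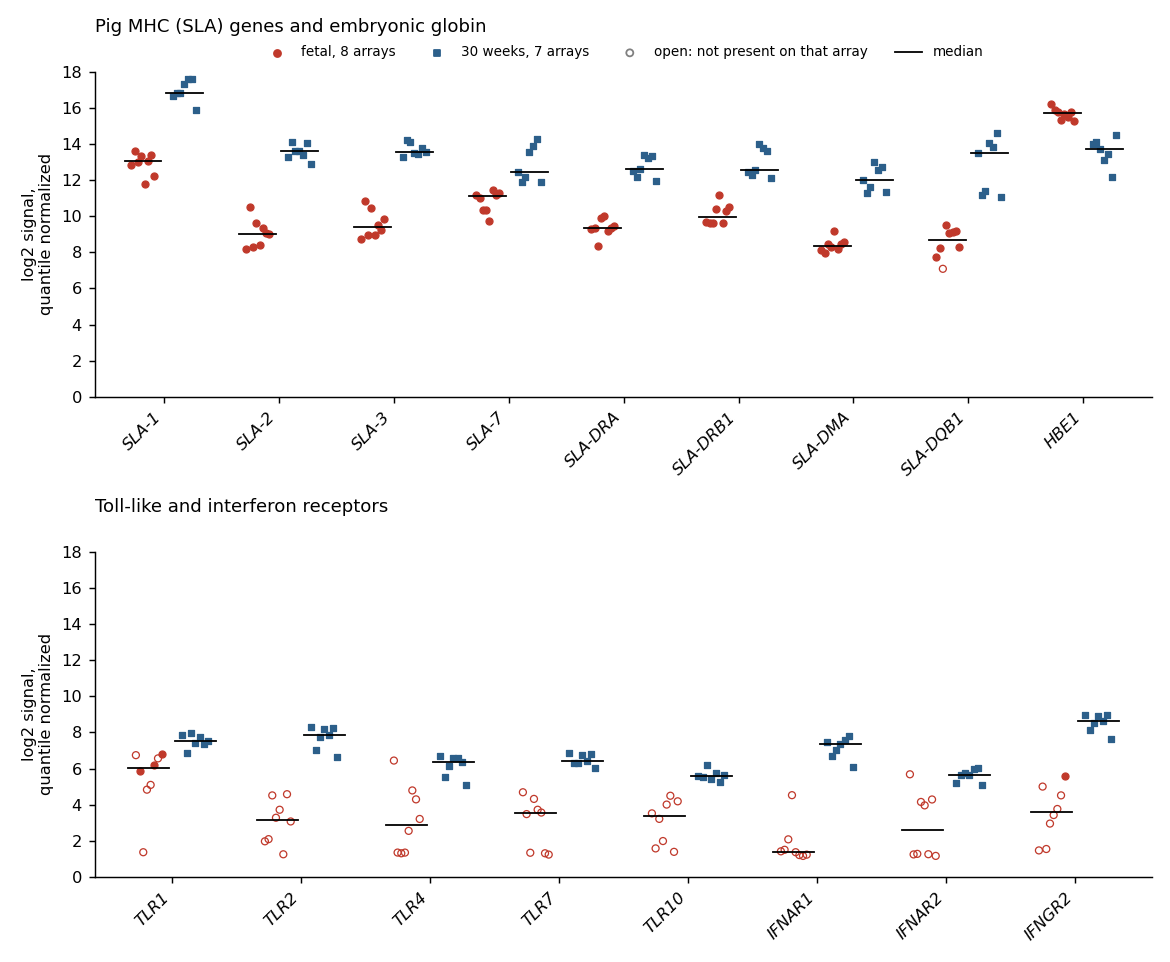
Quantile-normalized log2 signal on each array for SLA genes and embryonic globin (top) and for Toll-like and interferon receptor genes (bottom); red circles are the 8 fetal arrays, blue squares the 7 arrays at 30 weeks, open symbols mark arrays on which the probe was not present, and black lines are medians. SLA genes were already present in the fetus and moved up, for example SLA-1 from a median of 13.03 to 16.83, whereas TLR2, TLR4, TLR7, TLR10, IFNAR1 and IFNAR2 have only open symbols in the fetus.

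Toll-like receptors were largely undetected in fetal blood, where the background limit was higher (4.48 to 7.17, against 2.46 to 3.44 at 30 weeks). TLR2 was not well above background on any fetal array and lay at 6.64, 7.88 and 8.28 at 30 weeks, at least 4.06-fold higher (adjusted p = 5.25e-07). TLR7, the sensor of single-stranded RNA, was likewise not well above background in any fetus and was at 6.05, 6.44 and 6.88 at 30 weeks, at least 1.75-fold higher (adjusted p = 1.55e-05). TLR4 gave at least 1.35-fold on its brightest probe (adjusted p = 0.000962). None of its 4 probes was present on a fetal array, so sizes are bounds. The 3 that were called higher included the printed probe, and the remaining probe was not called (adjusted p = 0.986). TLR10 was present on all 7 arrays at 30 weeks and on 0 in the fetus, and its signal was too close to the background limit for a bound on the fold. TLR1, the partner of TLR2, was present on 3 fetal arrays and rose by 2.10 (adjusted p = 0.0072). TLR3, TLR6, TLR8 and TLR9 were seen on 4, 5, 4 and 2 of the 7 older arrays and on 0 fetal arrays, too few to be tested. Under quantile normalization no Toll-like receptor probe was called lower.

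Signalling proteins downstream of these receptors behaved in different ways. The transcription factor gene NFKB1 rose by 4.20 (adjusted p = 1.49e-05) and the kinase gene IRAK4 by 2.90. NFKBIA, the inhibitor of NF-kappa-B, was at 8.30, 8.98 and 11.05 in the fetus and 10.84, 12.23 and 13.69 at 30 weeks (3.02, adjusted p = 3.69e-05), but 1 of its 3 probes gave 0.13 and was not called. The adaptor MYD88 lay between 13.36 and 16.03 over both stages and was not called (-0.50, adjusted p = 0.225), but was lower by the 75th percentile (-2.29). IRF7, the factor that drives interferon genes, fell by 1.23 on its brighter probe (adjusted p = 0.0285) and was not called on the other (-0.62, adjusted p = 0.171). In the whole list of 20 genes 14 were tested, 10 rose and 1 fell (median 2.34, against 51.9% higher, 22.2% lower and a median of 1.19 over all tested probes), and 11 of the 14 were admitted through 30 weeks alone. Scaling by the 75th percentile gave 9 higher and 2 lower with a median of 1.79. Restricted to probes present on all 15 arrays, the list median was -0.50, and nothing is read from the count.

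Interferon receptor chains were called higher at 30 weeks, with a bound on the size for 1 probe only. IFNAR1, a chain of the type I receptor, was not well above background on any fetal array and was at 6.11, 7.36 and 7.79 at 30 weeks, at least 2.73-fold higher on the brighter of its 2 probes (adjusted p = 7.07e-08). The dimmer IFNAR1 probe, present on 0 fetal arrays, was also called higher (adjusted p = 0.000193). Its stages overlapped and it was too dim for a bound. IFNAR2, the other chain, was present on 0 fetal and 7 older arrays (adjusted p = 0.00118). It too overlapped between the stages and was too dim for a bound. IFNGR2, of the interferon gamma receptor, was present on 1 fetal array and rose by 5.0 (SE 0.56, adjusted p = 1.00e-06), from a median of 3.60 to 8.66. That fetal median lay under the background limit, so the size of the rise is uncertain. The receptor-bound kinase gene JAK1 was at 7.01, 7.78 and 9.97 in the fetus and 11.40, 11.61 and 12.29 at 30 weeks on its brighter probe (3.64), and rose by 5.66 on the other. TYK2, the second kinase of the type I receptor, fell by 1.23. STAT2 was not called on its brightest probe (-0.20, adjusted p = 0.619) and rose by 2.35 and 2.52 on the other two. In the list of interferons and receptors 8 of 11 genes were tested, 6 rose and 1 fell (median 2.74, or -0.20 over probes present on all 15 arrays), and 5 were admitted through 30 weeks alone.

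Among genes that interferon switches on, 12 of 15 tested rose and 2 fell (18 on the array, median 3.72). MX1, a GTPase that traps viruses, showed the largest rise of all named genes under quantile normalization, 6.57 (SE 1.26, adjusted p = 0.000191). Its fetal median was 3.13 and its highest fetal value 9.23, with 3 arrays present, against 9.52, 10.42 and 13.08 at 30 weeks. The fetal spread was thus wide, the stages only just separate, and the rank of MX1 over genes with similar rises uncertain. EIF2AK2, the kinase that halts translation on double-stranded RNA, was present on 1 fetal array and rose by 4.41 (adjusted p = 4.14e-06). Its fetal median of 1.82 lay under the background limit, so the size of the rise is uncertain. ISG20, an exonuclease, was at least 2.77-fold higher. RSAD2, or viperin, was present on no fetal array and all 7 older arrays, with no bound on the fold. The 2 that fell, on their brightest probes, were IRF9 and IRF7, which turn these genes on. IRF9 fell by 2.31 on that probe (adjusted p = 8.84e-06), rose by 2.83 on another (adjusted p = 0.000304) and was not called on the last of 3 (1.11). With the probes of a gene averaged, 12 of the 15 were higher and 0 lower, so the calls of both genes depended on the probe. Of the 15 genes 11 were admitted through 30 weeks alone, and over probes present on all 15 arrays the list median was -1.23.

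T cell genes were higher in 10 of 13 tested members and lower in 1 (16 on the array, median 2.76), where 51.9% of all tested probes were higher. The median was 1.47 after scaling by the 75th percentile, and 10 of the 13 were admitted through 30 weeks alone. The single gene whose probe was present on all 15 arrays gave 0.18. GATA3, a factor of helper T cells, rose by 6.03 (SE 0.95, adjusted p = 3.03e-05), from a fetal median of 4.14 and a highest value of 9.43 to a median of 10.51 and a highest value of 11.70, and did not overlap. CCR7, the homing receptor of naive T cells, was at 4.23, 6.37 and 8.07 in the fetus and had a median of 10.63 at 30 weeks with no overlap (4.33, adjusted p = 4.22e-07). CD8A, of cytotoxic T cells, was present on 2 fetal arrays and rose by 4.67 from a fetal median of 4.17, under the background limit. CD3D rose by 4.29. Other members depended on the probe. CD3E was not called (0.18, adjusted p = 0.702). CD3G was not called on its brighter probe (1.68, adjusted p = 0.077) and was higher on the other, which was present on 0 fetal arrays (adjusted p = 0.0418). The adhesion molecule CD2 fell by 1.47 on its brighter probe and rose by 3.03 on the other. CD3D was at 1.30 on fetal male 3, the array with the lowest summed signal, and between 6.88 and 10.82 on the other fetal arrays.

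All 5 B cell genes on the array rose, with a median of 2.10. CD40, the receptor for T cell help, was at 7.97, 8.57 and 9.11 in the fetus and had a median of 10.83 at 30 weeks with no overlap, a difference of 2.04 (adjusted p = 6.05e-06) and the only member admitted at both stages. VPREB1, the surrogate light chain of B cell precursors, rose by 1.74 and CD72 by 2.10. PRDM1, the factor of plasma cells, was present on no fetal array and every 30-week array.

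NK and cytotoxic genes rose in 5 of 7 tested members and fell in 1 (median 3.60), against 51.9% and 22.2% of all tested probes. Of the 7, 3 were admitted through 30 weeks alone, which favours a rise. Over the 2 genes with a probe present on all 15 arrays, 1 rose and 1 fell (median 1.53). CCL5, a chemokine of NK and memory T cells, was not well above background on any fetal array and was at 6.60, 8.21 and 8.41 at 30 weeks, at least 3.78-fold higher (adjusted p = 2.31e-08). The signalling adaptor genes TYROBP and HCST rose by 4.54 and 4.27, and FCGR3A, the CD16 receptor, was at 7.01, 10.12 and 10.57 against 12.81, 13.04 and 13.52 (3.60, adjusted p = 6.10e-06). Perforin (PRF1) was not called (0.04, adjusted p = 0.962). Granulysin (GNLY) was bright throughout, with medians of 15.72 and 15.34, and its fall of 0.54 was barely past the threshold (adjusted p = 0.0408).

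Monocyte genes were higher in 11 of 12 tested members with 0 lower (median 2.55), against 51.9% and 22.2% of all tested probes. Of the 12, 8 were admitted through 30 weeks alone, and the median was 1.81 after scaling by the 75th percentile and 0.60 over the 2 genes with a probe present on all 15 arrays. FCN1, ficolin of monocytes, was present on 1 fetal array and rose by 6.27 (SE 0.62, adjusted p = 2.63e-07), from 1.58, 3.18 and 5.71 to 8.13, 9.61 and 10.59. SIRPA, an inhibitory receptor of myeloid cells, rose by 5.05 and LGALS3, galectin-3, by 4.26. Lysozyme (LYZ) rose by 3.79 with wide fetal values, 1.37 on fetal male 3 and 5.83 to 9.59 on the others. CD14, the lipopolysaccharide co-receptor, rose by 1.53 on its brighter probe, and the other, present on 0 fetal arrays, was also called higher (adjusted p = 1.05e-05). Cathepsin D (CTSD) was not called (-0.10, adjusted p = 0.755).

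Neutrophil genes moved in both directions. Surface receptors and oxidase genes rose, 3 genes of granule or antimicrobial proteins fell, and MMP9, a protease also stored in granules, rose by 2.70. IL8RB, the receptor of the chemoattractant IL-8, was at 2.05, 6.11 and 7.89 in the fetus and 10.15, 12.39 and 13.28 at 30 weeks (6.37, SE 0.73, adjusted p = 1.18e-06). NCF1 was at least 6.50-fold higher (adjusted p = 3.38e-07), since no fetal array had it well above background, and CYBA, the membrane subunit of the same oxidase, rose by 3.16. ITGB2, the beta-2 integrin, rose by 6.41 on one probe and gave 0.28 on the other. The fallen members were NPG4, a protegrin antimicrobial peptide, at 8.54, 10.19 and 10.86 against 4.97, 6.07 and 7.44 (-3.79, adjusted p = 5.10e-07), PGLYRP1, a peptidoglycan-binding granule protein (-3.50), and ARG1, arginase (-2.32). Lactoferrin (LTF), of the secondary granules, was not called (0.24, adjusted p = 0.61). Of 13 tested genes 8 rose and 3 fell, shares near the 51.9% and 22.2% of all tested probes. The median of 2.70 was -2.32 over probes present on all 15 arrays.

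Further myeloid genes were seen at 30 weeks and on no fetal array for at least one probe. TREM1, which amplifies inflammation, was at 7.01, 8.43 and 8.99 and at least 6.17-fold higher (adjusted p = 8.30e-08). CHI3L1, a chitinase-like granule protein, was at least 8.64-fold higher and FGL2, a prothrombinase, at least 3.87-fold higher on the probe with the largest of 3 rises, its other probes being present in 8 and 6 fetuses. CD45, the phosphatase found on all leukocytes and absent from mature red cells, was present on 2 fetal arrays and rose by 6.38 (SE 0.78, adjusted p = 2.38e-06), with 3 of 3 probes called higher. Its fetal median of 1.26 lay under the background limit, so the size of the rise is uncertain.

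Cytokines, chemokines and their receptors gave 13 rises and 3 falls in 20 tested genes of 41 on the array (median 2.29, or -1.86 over probes present on all 15 arrays), against 51.9% and 22.2% of all tested probes. Scaling by the 75th percentile gave 10 higher and 4 lower with a median of 1.14. CCR1, a receptor for inflammatory chemokines, was at 4.76, 7.55 and 8.88 in the fetus and 10.01, 11.32 and 12.26 at 30 weeks (3.97, adjusted p = 9.68e-06). IL16, a T cell attractant, rose by 3.94 and TGFB1 by 3.42, each without overlap. Those that fell were CXCR3 by 2.03, TNF by 1.93 and IL4R by 1.86. IL10 was not called (1.18, adjusted p = 0.095).

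Complement and Fc receptor genes rose in 6 and fell in 1 of 11 tested (26 on the array, median 1.87), a share of rises near the 51.9% of all tested probes. The inhibitory Fc receptor FCGR2B rose by 5.05, although fetal male 2 stood at 8.39 against a fetal median of 1.46. C5AR1, the receptor of the C5a fragment, fell by 3.08 from 8.97, 9.63 and 10.48 to 5.45, 6.46 and 8.38 (adjusted p = 6.54e-06). Complement proteins C3, CFB and C1R, made mainly in liver, were not called and had fetal values from near background up to 11.97, 14.04 and 12.82. Without fetal male 2 the list had 8 rises and 1 fall.

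Platelet genes showed no common direction. SELP and ITGB3, adhesion molecules of platelets, rose by 1.97 and 2.02, THBS1 and SPARC fell, and ITGA2B and PPBP were not called (0.41 and -0.67, adjusted p = 0.181 and 0.201). THBS1 lost its call with slide as a random block (adjusted p = 0.112). Of the 6 genes of eosinophils, basophils and mast cells 4 rose and 1 fell, against 51.9% and 22.2% of all tested probes. The median was 1.57, against 1.19 for all tested probes. Of the 6, 4 were admitted through 30 weeks alone, which favours a rise. Over the 2 genes with a probe present on all 15 arrays the median was -0.47. HDC, which makes histamine, rose by 3.11. GATA2, a factor that eosinophils, basophils and mast cells share with blood stem and progenitor cells, fell by 2.51. It went from 11.15, 11.92 and 12.35 to 7.25, 9.55 and 11.37.

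Early response and heat shock genes, which respond to handling of blood, were mixed, with 6 higher and 3 lower of 16 tested (median 0.36). MYC rose by 3.07 and HSPB1 by 2.05, while GADD45A, a growth arrest gene, fell by 3.50 (adjusted p = 1.05e-07). Glycolysis genes gave 2 rises and 1 fall of 6. LDHB rose by 1.06, a call that was lost under 75th percentile scaling (0.59, adjusted p = 0.186).

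Ribosomal protein genes had no stable direction. Of 30 tested, 8 rose and 7 fell (median -0.06), but scaling by the 75th percentile gave 0 rises and 23 falls (median -1.66). RPLP1 fell by 4.07 and RPL12 by 1.42, and by 4.36 and 1.69 after scaling by the 75th percentile. RPL29 rose by 1.78 under quantile normalization and was not called under the 75th percentile (0.21, adjusted p = 0.57). As a share of summed signal the ribosomal protein probes took 3.97% to 8.25% in the fetus and 4.75% to 5.87% at 30 weeks, a difference in means of -0.69 percentage points that did not exceed the spread (two-sided exact permutation test, p = 0.278). The fetal arrays varied more than the older ones, with SDs of 1.51 and 0.393.

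**Figure D4:**
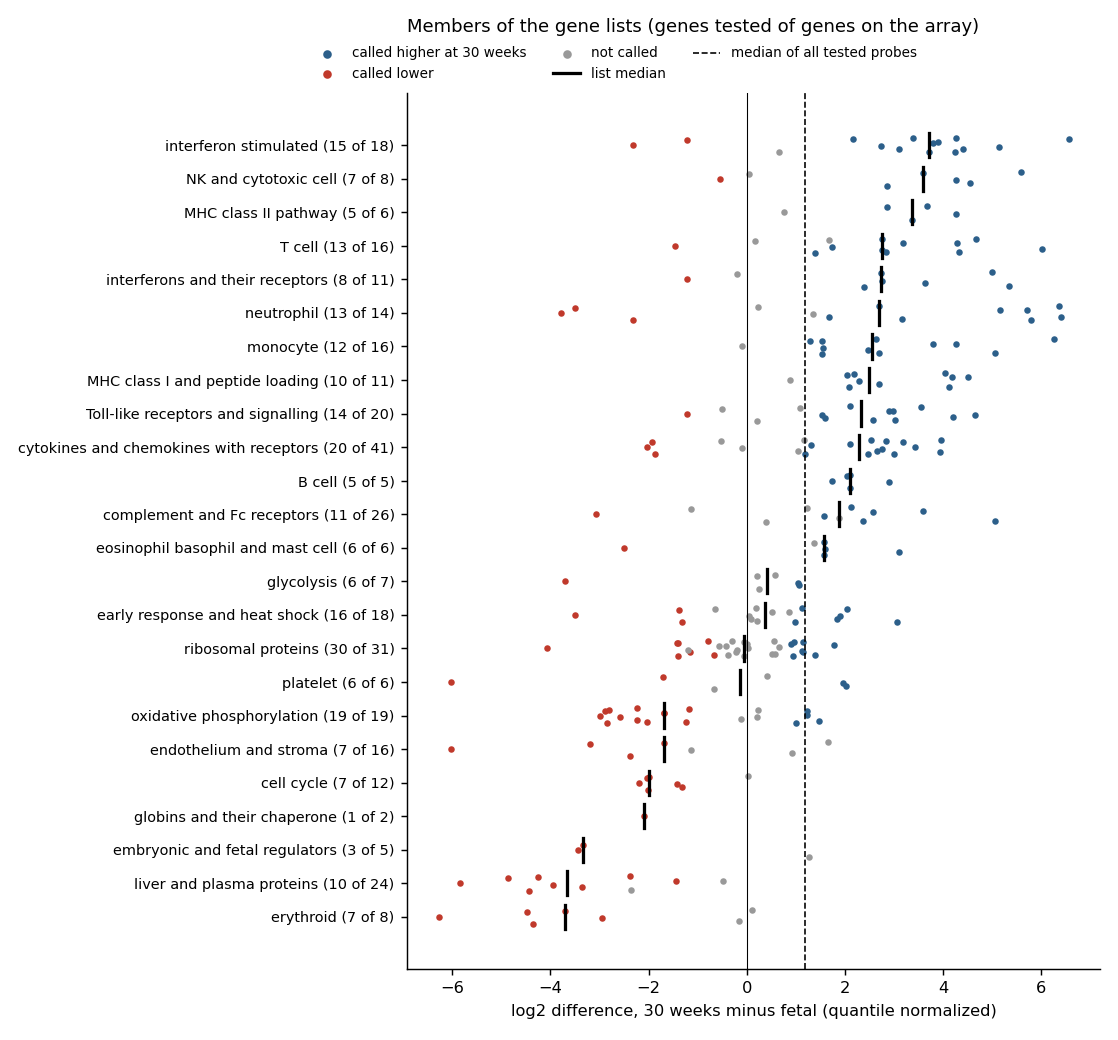
Log2 difference of each tested gene (30 weeks minus fetal, quantile normalized, 1 probe per gene) by gene list, with genes tested of genes on the array in brackets; blue points were called higher, red lower and grey not called, thick bars are list medians and the dashed line is the median of all tested probes, 1.19. The erythroid, liver, globin and cell cycle lists hold no blue point, and the MHC, B cell and monocyte lists hold no red point.

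**Figure D5:**
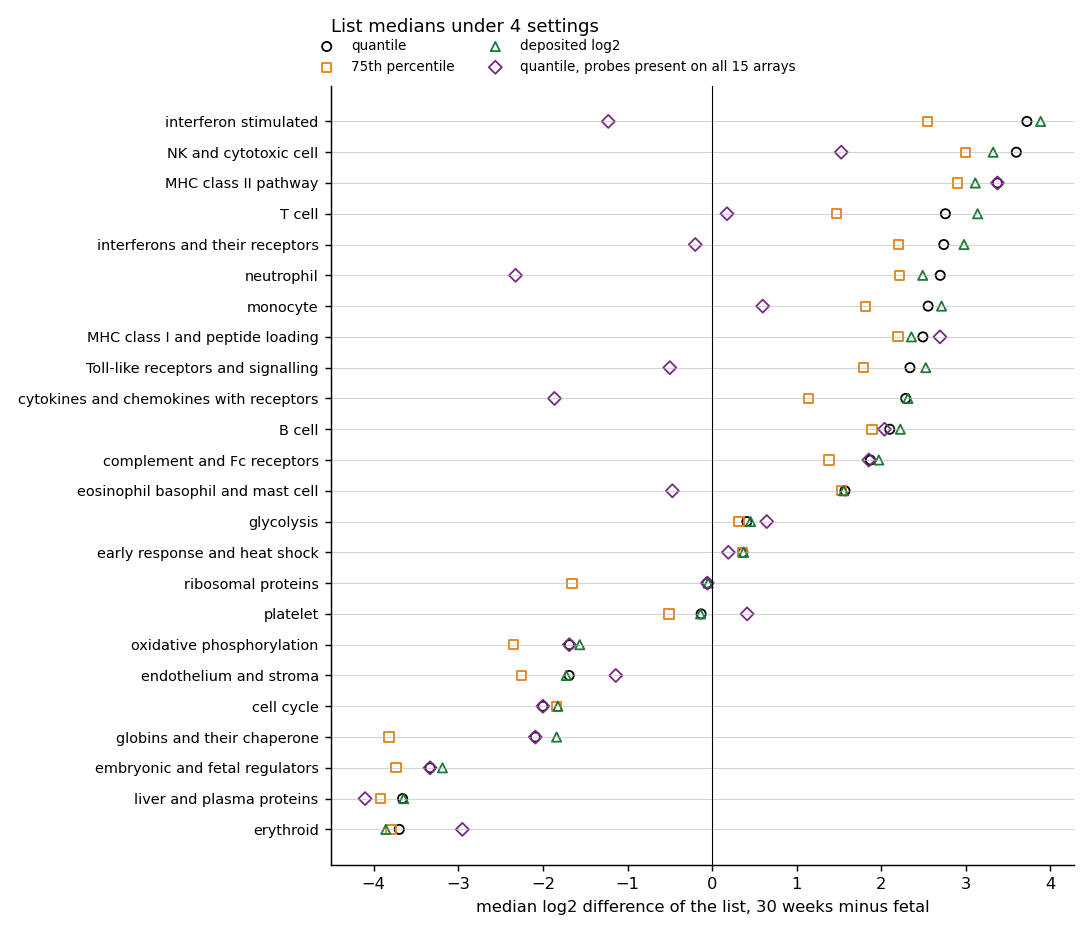
Median log2 difference of each gene list (30 weeks minus fetal) under 4 settings, with circles for quantile normalization, squares for scaling by the 75th percentile, triangles for the deposited log2 values and diamonds for quantile normalization limited to probes present on all 15 arrays. The erythroid, liver, cell cycle and oxidative phosphorylation lists stay left of 0 in each setting, while the diamonds of 6 immune lists cross 0, for example the neutrophil list from 2.70 to -2.32.

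Presence was also counted alone, which needs no scaling between arrays but depends on the background limit of each array. Of 43603 probes, 3316 (7.60%) were present on every 30-week array and on no fetal array. These included 170 probes with a symbol, of 161 genes, and 1010 of the 3316 were also present on every 12-week array. Besides the genes already named, the epithelial ion transport regulator FXYD3 was at least 4.62-fold higher and ACSL4, a fatty acid activating enzyme, at least 2.24-fold higher on the most changed of its 5 probes, the least changed giving -0.19. In the other direction 11 probes (0.0252%) were present on every fetal array and on no 30-week array. Their 3 named genes were TNNI1, SPARC and DCN, and the bounds of all 11 ran from 12.4-fold to 127-fold. Background limits were higher on fetal arrays (4.48 to 7.17, against 2.46 to 3.44 at 30 weeks). Numbers of present probes also differed between the stages, as given above. The part of either in this imbalance was not tested. By the positive and significant flag alone, the counts were 796 at 30 weeks alone and 6 in the fetus alone. Leaving out fetal male 3 raised the 11 to 22.

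The change from fetus to 30 weeks was also compared between the sexes. The interaction of stage and sex was called for 61 of 17636 probes (0.346%), and 3213 had an unadjusted p under 0.05. The rise was larger in males for 25 and in females for 36. Of the 61, 4 had a symbol. PLET1 fell by 7.64 in females and by 3.67 in males, ANXA1 changed by -0.25 in females and 4.41 in males on one probe, FLNA by 2.75 and 0.14, and PNPLA2 by -4.02 and -1.41 on 1 of its 4 probes. None of the 17636 was called after scaling by the 75th percentile with limma, where 3939 had an unadjusted p under 0.05. Sex was confounded with scan day among the fetuses, and the parts of each cannot be told apart.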

How the data were processed

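The authors scanned 1 Cyanine 3 array per blood sample and deposited, for each, the spot intensity of Agilent Feature Extraction (9.5.3.1 per the methods and labels; file headers give another version), background-subtracted but not normalized between arrays. They also deposited log2 values, used as an alternative. Here outlier spots were left out, spots of a probe averaged, and all 31 arrays quantile normalized on the log2 scale. Stages were compared with limma 3.58.1 (R 4.3.3, Python 3.11.15), with Benjamini-Hochberg adjustment over 17636 probes. The fit alone was tried on simulated normalized values with few changed probes, which does not test the scaling or the background limit. The number of arrays limits the precision. The brightest probe stood for a gene in a list. Named genes were the 12 largest rises and falls without overlap, the 4 most changed called members of each of 25 lists (sex chromosome genes had 1 on the array and 0 tested), globin, SLA, Toll-like and interferon receptor genes, up to 12 genes present at one stage alone, and 3 top interaction probes. Some genes that this rule names are not reported here. Other members were named after their values were seen. Symbols came from the files and RefSeq tables for 2978 probes. No genome was used, so positions are not given. Members and lists were chosen with earlier results of these data known. One 30-week array titled female carries the entry male and was kept as female. Alternatives covered scaling, background, filters, blocks, tests and left-out arrays.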

Additional observations from a re-analysis of the deposited data

Results flagged for a closer look

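In 224 sets of values (a named probe or an array value at one stage) 14 had 1 array far from the others, which is 6.25%. The rule is set to flag about 1 in 20 sets of normally distributed values, and the rate for values like these was not tested. Of the 14 sets, 10 were fetal and 4 at 30 weeks. On fetal male 2, APOA1 stood at 14.67, APOC3 at 12.68 and FCGR2B at 8.39, all above the other fetal arrays, and TGFB1 at 3.87, below them. On fetal male 3, CD3D was at 1.30, HCST at 2.31, LYZ at 1.37 and TLR1 at 1.37, each below the other fetal arrays. COL6A1 was low on fetal male 1 at 1.25, and IFNAR1 was high on fetal male 4 at 4.53 although not present there. At 30 weeks, CHI3L1 and TREM1 were low on female 4 at 7.12 and 7.01, and DCN and SPARC were highest on male 2 at 2.44 and 2.70, which are values under the background limit.

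The change from fetus to 30 weeks differed between the sexes, by the test of the interaction, for PLET1 (males minus females 3.98, adjusted p = 0.0312) and for 3 probes without a gene symbol. Probe A_72_P119631 gave -3.67, A_72_P327493 gave 4.16 and A_72_P365048 gave 4.70, each with an adjusted p of 0.00674 by limma. The former 2 were not present on any fetal array, and after scaling by the 75th percentile the adjusted p of the 3 probes was 0.0826, 0.127 and 0.0838. Among the fetuses, sex was confounded with scan day.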

How the results depend on the processing

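Of 2986 combinations of a named probe and an alternative, 2952 kept the direction and the call, and no named probe reversed. The 8 probes that lost a call under some alternative were those of COL6A1, FN1, KLF4, LDHB, RPL22, RPL29, THBS1 and TLR1. RPL22 (-1.40) came to adjusted p = 0.0806 without 30-week female 3, KLF4 to 0.252 under the 75th percentile and TLR1 to 0.0556 with slide as a random block. Without a filter on dim probes 10067 probes were higher and 9481 lower. Limited to probes present on all 15 arrays, 3406 were called, 1160 higher and 2246 lower, the lists had 46 higher members in place of 125, and the medians of 6 lists turned, to -2.32 (neutrophil), -0.47 (eosinophil, basophil and mast cell), -0.50 (Toll-like receptors), -0.20 (interferons and receptors), -1.23 (interferon stimulated) and -1.86 (cytokines). That filter removes probes dim in the fetus by construction. The interaction with sex was called for 0 probes under the 75th percentile, 24 with quantile normalization over the 15 arrays, 92 in the deposited values, 196 after normexp, 782 without a filter and 0 over probes present on all 15 arrays; the cause was not tested. Presence by the positive and significant flag alone gave 796 probes at 30 weeks alone and 6 in the fetus alone.

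Leaving out each array in turn gave 12448 to 13296 called probes, 8717 to 9282 higher and 3731 to 4077 lower, 3317 to 4515 probes present at 30 weeks alone and 11 to 22 in the fetus alone, globin differences of -0.567 to -0.483 percentage points and 9989 to 11003 more present probes. Replicate numbers name samples only, with correlations of same-numbered arrays from -0.20 to 0.18. With a replicate block 9125 probes were higher and 3753 lower. Slide and scan day as random blocks gave 10968 and 11171 calls. The methods' t-test gave 13254 at its threshold and 12834 after Benjamini-Hochberg adjustment. The lists without fetal male 2 or 3 were added after seeing the data. Signal under the background limit allows only bounds, which holds for most risen genes in the fetus.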

Other observations

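Genes of striated muscle were listed after TNNI1 and DES, which the list includes, had been seen among the largest falls. Of 29 on the array 12 were tested, 8 fell and 1 rose, with a median of -3.90. Of the 8 falls 4 (TNNI1, MYH7, MYL2 and CKM) were of probes admitted through the fetal stage alone, so the count is a description and supports nothing. MYH7 and MYL2, the heavy and light myosin chains of slow and heart muscle, were present on 7 of 8 fetal arrays and on 0 of 7 at 30 weeks, at least 53.6-fold and 46.4-fold lower. Muscle creatine kinase (CKM), with the same presence, was at least 34.4-fold lower. TNNI3, the troponin of heart, fell by 5.42 and CAV3, the caveolin of muscle, by 4.40. MYOG, a muscle differentiation factor, rose by 2.02. CKM and MYL2 were present on 0 arrays at 12 and 20 weeks, and MYH7 on 1 at 12 weeks. The list took 0.0583% to 0.168% of summed signal in the fetus and 0.00873% to 0.0267% at 30 weeks, with no overlap. Leaving out fetal male 3 gave 9 lower and 1 higher. The source of these transcripts was not tested.

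Probes described as immunoglobulin chains numbered 93, of which 51 were present on no array of either stage. Of the 19 tested, 12 rose and 3 fell, where 51.9% and 22.2% of all tested probes did so. The median was 2.05 (0.97 after scaling by the 75th percentile), and 7 were present on every 30-week array and no fetal array. Most of the 12 risen probes were present on no fetal array, so admission favoured a rise. Of the 5 probes present on every fetal array, 3 were lower (-3.62, -2.59 and -2.24) and 1 was higher (2.05). The remaining probe was not called by limma (-0.84, adjusted p = 0.0857). T cell receptor chains had 17 probes, 6 tested, 4 higher and 1 lower, with a median of 2.08 (1.11 after scaling by the 75th percentile). These probes carry no gene symbol, many are near copies of each other, and the set was chosen after the values had been seen.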
